A study of Mus musculus with 8 samples.

Results

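Long intergenic noncoding RNAs (lincRNAs) are transcripts from between protein-coding genes that are not translated into a known protein. The genes described here carry the biotype lincRNA in the GENCODE mouse M21 annotation and reached a mean level of at least 3 CPM over all 8 libraries, where CPM is the count scaled to TMM-adjusted library size. They were thus chosen by their measured mean level, which is used below only as a description. Genes on chromosomes X and Y, H19 and genes in one stretch of chromosome 12 were left out. The rule gave 255 genes, out of 5535 lincRNA genes and 54446 genes in all. The 3 genes just outside the threshold were 4931440J10Rik, Gm29502 and Gm34907 at 2.96, 2.97 and 2.99 CPM, and the 3 just inside it were 2210008F06Rik, Gm26843 and Gm26767 at 3.00, 3.00 and 3.03 CPM.

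Bulk RNA-seq counts were compared between 4 samples of mice homozygous for a gene trap in Scn2a (HOM, Scn2a gt/gt) and 4 samples of wild-type littermates (WT), all from heterozygous breeding pairs. The study used this allele to ask what a severe shortage of NaV1.2, the neuronal sodium channel encoded by Scn2a, does in adult mice. The labels give the strain of both groups as C75BL6 and the source of the RNA as neuron, and they do not give age, sex, brain region or a purification step. The trap is a cassette that breaks off transcription of its host gene, and it is carried by every cell of the animal. Whether each numbered sample is 1 mouse is not stated, so p-values here rest on sample-to-sample spread, which may be technical.

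Most lincRNAs are spliced and polyadenylated like messenger RNA, but many stay in the nucleus, and some act only through the act of being transcribed or as hosts of small RNAs cut from their introns. Malat1, among the most abundant of them in brain, gathers at nuclear speckles, where splicing factors are stored, and its neighbour Neat1 is the scaffold of paraspeckles. Bc1 is an exception: a short rodent transcript of RNA polymerase III that travels into dendrites and holds back translation there.

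Scn2a, the trapped gene, stood at 122, 147, 131 and 111 CPM in HOM1 to HOM4, against 477, 371, 477 and 415 CPM in WT1 to WT4, with no overlap. Total counts lay between 27993412 and 37538988. Glial transcripts were abundant, with summed oligodendrocyte markers at 3362 to 4116 CPM in HOM libraries and 3926 to 5874 CPM in WT libraries. Summed neuron markers lay at 9127 to 9527 CPM in HOM libraries and 10250 to 11455 CPM in WT libraries, with Nefl and Tubb3 of the 12 at 0. Astrocyte markers summed to 3970 to 4865 CPM in HOM libraries and 4957 to 5283 CPM in WT libraries. Pericyte and fibroblast markers summed to 133 to 161 CPM in HOM libraries and 174 to 182 CPM in WT libraries, and endothelial markers to 121 to 153 CPM in HOM libraries and 152 to 201 CPM in WT libraries. Oligodendrocyte precursor markers, of which C1ql1 and Gpr17 of 5 were at 0, summed to 89.1 to 111 CPM in HOM libraries and 111 to 123 CPM in WT libraries, and microglial markers, with P2ry12 of 8 at 0, to 310.2 to 344 CPM in HOM libraries and 279 to 323 CPM in WT libraries. Whether the markers at 0 were absent or not measured, as for the nested genes described below, was not tested. By edgeR 3 neuron markers, 1 astrocyte, 2 endothelial and 3 choroid plexus markers were lower and 1 microglial marker higher. The 10 choroid plexus markers summed to 19.4 to 234 CPM in HOM libraries and 147 to 1710 CPM in WT libraries, the highest value being that of WT4. Some libraries stood apart in ways the genotype does not describe: HOM4 had 2 counts of Y-linked genes where the others had 4452 to 5984, and HOM1, HOM4 and WT2 held 1.77%, 1.61% and 1.70% of their counts in 1 ribosomal RNA gene, CT010467.1, against 0.654% to 0.816% in the other 5 libraries. The part of cell makeup, sex and ribosomal RNA level in the values below was not tested, except where a fit without those libraries or with the level as a covariate is given.

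The sequences shown here come from RefSeq tables on GRCm38.p6. The promoter of Malat1, chr19:5802623-5802922 on the minus strand, is shown because that gene made most of the net share difference of the 255 genes. It runs from 250 bases before to 50 bases after the start, with the letters TGACG or their reverse complement CGTCA in capitals, the core of the cAMP response element bound by CREB, a factor that neuronal activity switches on.
Malat1 promoter: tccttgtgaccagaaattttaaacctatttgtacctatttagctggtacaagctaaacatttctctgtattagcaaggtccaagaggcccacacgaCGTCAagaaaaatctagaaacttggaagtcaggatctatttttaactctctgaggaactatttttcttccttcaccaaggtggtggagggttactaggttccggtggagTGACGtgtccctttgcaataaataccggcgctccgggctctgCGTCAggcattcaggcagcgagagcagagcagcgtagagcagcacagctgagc
The capitals begin at -154, -45 and -3 relative to the start. At least 1 such match, on either strand, is present in 20.9% of all 32544 promoters of this length and in 24.6% of the 175 promoters listed for 135 of the lincRNA genes described here. The complete palindrome TGACGTCA is in 1.80% and 3.43% of them. It is not in the Malat1 window.

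The start of Bc1, chr7:144914220-144914519 on the plus strand, is shown because Bc1 made the largest opposite part. The capitals mark the A box of RNA polymerase III genes, searched on both strands as TAGC, any 2 bases, AG, any 1 base, GG, which begins 13 bases into the transcript.
Bc1 promoter: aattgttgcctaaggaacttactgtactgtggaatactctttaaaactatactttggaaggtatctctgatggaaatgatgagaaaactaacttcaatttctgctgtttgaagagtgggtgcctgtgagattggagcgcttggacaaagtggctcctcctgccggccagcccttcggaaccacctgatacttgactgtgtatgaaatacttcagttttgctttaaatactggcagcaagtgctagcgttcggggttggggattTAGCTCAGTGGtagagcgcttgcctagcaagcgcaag
That motif is in 0.903% of all promoters.

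Counts over gene spans do not measure mature microRNAs, but 14 of the 255 genes hold 26 microRNA genes with an entry. Those of the miR-9 and miR-344 families are shown because their hosts are described below. The 3 loci of miR-9, a microRNA of neural progenitors and neurons, all lie in lincRNA genes of this set, in Gm3764 on chromosome 3, C130071C03Rik on chromosome 13 and Mir9-3hg on chromosome 7, and all 3 give the same pair of mature RNAs. The seed, bases 2 to 8, is in capitals.
miR-9-5p: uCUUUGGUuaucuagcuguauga
miR-9-3p: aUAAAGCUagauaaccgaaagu
The miR-344 microRNAs shown here all lie in 1 gene, A230057D06Rik on chromosome 7. Loci of the family outside the lincRNA genes described here were not looked up. The 3p arms of miR-344d and miR-344e share the seed AUAUAAC and those of miR-344 and miR-344c share GAUCUAG, while miR-344b has AUUUAGC and miR-344h has GUAUAAC.
miR-344d-3p: gAUAUAACcacugccagacuga
miR-344e-3p: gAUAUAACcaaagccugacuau
miR-344-3p: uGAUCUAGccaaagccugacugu
miR-344c-3p: uGAUCUAGucaaagccugacagu
miR-344b-3p: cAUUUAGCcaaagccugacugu
miR-344h-3p: gGUAUAACcaaagcccgacugu

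The 255 genes together took a larger share of the counts in HOM than in WT libraries, and 1 gene, Malat1, made 59.9% of the net difference. They held 1.05%, 0.976%, 0.950% and 1.03% of all counts in HOM1 to HOM4, against 0.899%, 0.887%, 0.883% and 0.802% in WT1 to WT4. Every HOM library lay above every WT library. The means were 1.00% ± 0.0484 in HOM and 0.868% ± 0.0442 in WT (SD, n = 4 each), a difference of 0.135 percentage points. On TMM-scaled library sizes in place of total counts, the difference was 0.0918 percentage points. Over all 5535 lincRNA genes, with those left out here included, the difference by total counts was 0.262 percentage points. The larger share was known when these genes were chosen, so it is described here and not tested. In bulk RNA, a change in the number of cells of a type and a change in RNA per cell cannot be told apart.

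**Figure D1:**
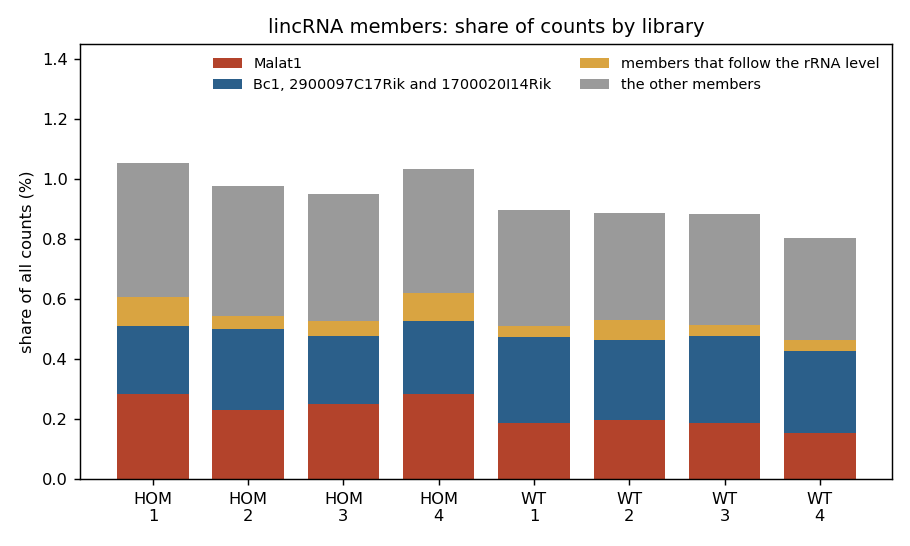
Stacked bars give the percent of all counts of each library held by the 255 lincRNA genes, HOM1 to HOM4 left of WT1 to WT4, split into Malat1, the 3 abundant genes with a lower mean share in HOM, 13 genes that follow the ribosomal RNA level, and the rest. Totals lie between 0.950% and 1.05% in HOM and between 0.802% and 0.899% in WT, and the Malat1 segment is larger in each HOM bar than in each WT bar.

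The net figure is a balance. The mean share was higher in HOM for 191 genes, which together added 0.181 percentage points, and lower for 64 genes, whose sum was -0.0456. Malat1 alone added 0.0808. The 3 abundant genes Bc1 at -0.0148, 2900097C17Rik at -0.0121 and 1700020I14Rik at -0.0106, made most of the opposite sum. Without Malat1 the other 254 genes held 0.740% ± 0.0290 in HOM and 0.685% ± 0.0280 in WT (SD, n = 4 each), a difference of 0.0542 percentage points, and the groups then overlapped, with HOM3 at 0.699% below WT1 at 0.713%. Without Malat1 and those 3 genes, the remaining 251 held 0.499% ± 0.0324 in HOM and 0.407% ± 0.0240 in WT, with no overlap. The 3 genes were picked as the largest negative parts, so leaving them out raises the difference by construction. After Malat1 the parts were small: D130009I18Rik added 0.0108, Gm28928 0.00987, Gm26561 0.00616, Miat 0.00479 and A230057D06Rik 0.00457 percentage points. The 179 genes with a positive part that were not among the 12 largest added 0.0445 together.

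**Figure D2:**
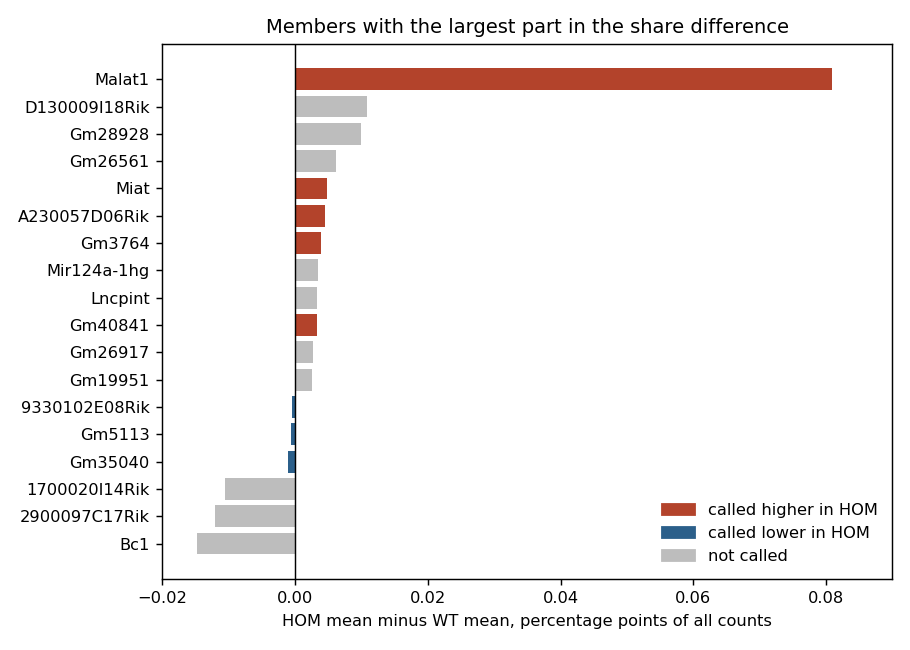
Bars give each gene's HOM mean minus WT mean in percentage points of all counts, for the 12 largest positive and the 6 largest negative parts, with calls of the edgeR test by colour. Malat1 reaches 0.0808, and no other gene exceeds 0.0108; Bc1 lies lowest at -0.0148.

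Abundance in the set was uneven. The 5 genes of highest mean level held 53.8% of the summed CPM, 12 genes were at 100 CPM or more, 86 at 10 to 100 CPM and 157 below 10 CPM, with a median of 7.35 CPM. Of the 255 symbols, 134 are provisional names of the form Gm plus a number and 87 end in Rik, and for most of these no function is annotated in the files. Gene spans ran from 168 bases for Bc1 to 666481 bases for Gm32647, with a median of 19204.

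All 255 genes passed the filter on low counts. Of them 31 were higher and 4 lower in HOM by edgeR's quasi-likelihood test at a Benjamini-Hochberg adjusted p under 0.05 over 17395 genes, and 220 did not pass. The called share was 13.7%, beside 5.4% of all genes tested. By direction, 12.2% of the set were higher, beside 2.47% of all genes tested, and 1.57% were lower, beside 2.94%. Their median log2 fold change was 0.12, beside 0.00 over all genes, and 169 of the 255 had a value above 0. CPM did not overlap for 51 genes that were above WT in every HOM library, 20% of the set beside 6.63% of all genes, and for 10 that were below, 3.92% beside 7.47%. The changes were modest, from 0.23 to 0.92 on the log2 scale among those called higher, and none reached a doubling. The count depended on the libraries: it was 5 higher without HOM1, 8 without HOM3, 19 without HOM4, 5 without WT3 and 14 without WT4. Calls over all genes fell in those fits too, from 940 to 212, 180, 552, 181 and 480. Without HOM2, WT1 or WT2 the set had 27, 25 and 23 higher, and 1187, 529 and 958 of all genes passed. Of the 35 called genes 3 passed in all 8 fits that left out 1 library, and each of the others lost its call in at least 1. In edgeR fits with mean choroid plexus marker level as a further term, no gene of the set passed (37 higher and 21 lower at an unadjusted p under 0.05), where 40 of all genes did. Those markers summed to 19.4 to 234 CPM in HOM libraries and 147 to 1710 CPM in WT libraries. That term thus largely follows genotype, and such a fit cannot tell them apart. In the 5 libraries of lower ribosomal RNA level alone none passed either (68 higher and 16 lower at an unadjusted p under 0.05), where 81 of all genes did. With all 8 libraries and no further term those unadjusted counts were 78 and 23.

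**Figure D3:**
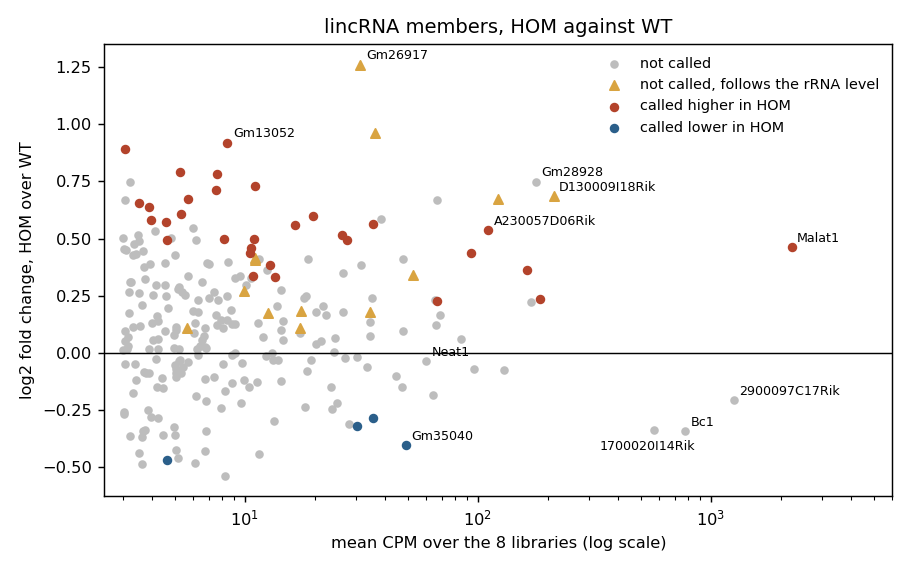
Each point is 1 of the 255 genes, with mean CPM over the 8 libraries on a log axis and the edgeR log2 fold change of HOM over WT on the other. The 31 genes called higher lie between 0.23 and 0.92, mostly at low to middle levels, and the 4 called lower between -0.47 and -0.29. Triangles mark 13 genes that follow the ribosomal RNA level. The rule that picked those 13 makes HOM and WT overlap, and none of them was called.

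Among nuclear lincRNAs of known localisation, Malat1 and Miat rose and Neat1 did not pass. Malat1 (ENSMUSG00000092341, chr19:5795690-5802672, minus strand) stood at 2795, 2270, 2435 and 2795 CPM in HOM1 to HOM4, against 1890, 2048, 1959 and 1579 CPM in WT1 to WT4. All HOM libraries were above all WT libraries, with HOM1 and HOM4 highest and WT4 lowest. Malat1 is overlapped by another annotated gene, and the level of such genes is uncertain. Its log2 fold change of 0.46 had an SE of 0.09 (edgeR, adjusted p = 0.0196). Adjusted p became 0.0681 without HOM1, 0.0532 without HOM3 and 0.0590 without WT3. It was 0.283 with the choroid plexus covariate, which largely follows genotype, at a log2 fold change of 0.36. Within libraries of like ribosomal RNA level the HOM to WT ratio was 1.36 among the 3 higher ones, which hold a single WT library, and 1.30 among the 5 lower ones.

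Neat1, which lies next to Malat1 on chromosome 19, had 73.7, 50.1, 62.7 and 50.8 CPM in HOM libraries, against 52.4, 63.8, 48.9 and 78.6 CPM in WT libraries. The groups overlapped over most of their range (log2 fold change -0.036, SE 0.15, edgeR adjusted p = 0.911). Miat, a neuron-enriched nuclear RNA also called Gomafu, had 187, 162, 179 and 201 CPM in HOM libraries, against 147, 160, 140 and 121 CPM in WT libraries. No values overlapped, though HOM2 and WT2 were close. Its log2 fold change was 0.36 (SE 0.09, edgeR adjusted p = 0.0409), the adjusted p ran from 0.0263 to 0.116 as each library was left out and passed without HOM2 or without WT2 only, and other genes overlap 86.2% of its span. Rmst, which works with SOX2 in neuronal differentiation of human cells, had 15.7 ± 0.885 CPM in HOM and 13.0 ± 1.35 CPM in WT (SD, n = 4 each; edgeR adjusted p = 0.0970). Pantr1, a neighbour of the transcription factor gene Pou3f3, had 35.2 ± 2.26 CPM in HOM and 33.4 ± 4.07 CPM in WT (edgeR adjusted p = 0.672).

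Of genes for proteins of the bodies where these RNAs gather, none passed in edgeR. For the 8 paraspeckle protein genes tested, no gene had an unadjusted p under 0.05 and none passed in DESeq2, with a median log2 fold change of -0.027. For the 16 genes of speckle and splicing factors, 5 were higher and 1 lower at an unadjusted p under 0.05, 2 were called higher by DESeq2, and the median was 0.11. Of 20 genes for nuclear RNA decay, 2 were higher and none lower in edgeR, beside 2.47% and 2.94% of all genes tested, with a median of 0.12. At an unadjusted p under 0.05 there were 5 higher and 1 lower, and DESeq2 called 2 and 1. Exosc8, a subunit of the RNA exosome, had 17.04 ± 1.31 CPM in HOM and 13.1 ± 0.701 CPM in WT (log2 fold change 0.38, edgeR adjusted p = 0.0273). Zcchc8, a subunit of a complex that brings nuclear RNA to the exosome, had 45.4 ± 2.04 CPM in HOM and 38.2 ± 1.27 CPM in WT (log2 fold change 0.25, edgeR adjusted p = 0.0455; SD, n = 4 each throughout).

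Of 29 lincRNA genes that contain an annotated small RNA gene, 8 rose and none fell in edgeR, 27.6% beside 12.2% of all 255, with a median log2 fold change of 0.23. At an unadjusted p under 0.05 there were 13 and 0, and DESeq2 called 11 and 0. The difference between hosts and the other genes was not tested. A230057D06Rik, the miR-344 host (chr7:61704519-61928690, minus strand), had 141, 135, 127 and 121 CPM in HOM1 to HOM4, against 100, 82.6, 99.8 and 78.6 CPM in WT1 to WT4. The lowest HOM library exceeded the highest WT library by a clear margin. Its log2 fold change was 0.54 (SE 0.09, edgeR adjusted p = 0.00956), and it was 1 of 3 called genes, with Gm13052 and Gm49782, that passed in all 8 fits that left out 1 library.

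Of the 3 miR-9 hosts, 1 passed. Gm3764, the host of miR-9-1, had 202, 190, 199 and 209 CPM in HOM libraries and 171, 175, 173 and 161 CPM in WT libraries. Its log2 fold change was small and the replicates tight (0.23, SE 0.06, edgeR adjusted p = 0.0397), and it passed in 2 of the 8 fits that left out a library, with adjusted p up to 0.103. C130071C03Rik, the miR-9-2 host and named after its values were seen, had 68.7 ± 2.65 CPM in HOM and 63.1 ± 3.17 CPM in WT (log2 fold change 0.12, edgeR adjusted p = 0.268). Mir9-3hg had 86.2 ± 6.80 CPM in HOM and 82.8 ± 9.27 CPM in WT (log2 fold change 0.06, edgeR adjusted p = 0.735; SD, n = 4 each). The 2 genes of the set that host miR-124, the most abundant microRNA of neurons, had like values: Mir124-2hg rose by 0.23 (SE 0.06, edgeR adjusted p = 0.0381), with 71.5, 73.5, 71.6 and 71.4 CPM in HOM libraries and 61.9, 63.6, 61.2 and 59.5 CPM in WT libraries. Mir124a-1hg had 188, 173, 181 and 183 CPM in HOM libraries and 156, 167, 153 and 145 CPM in WT libraries, with no overlap (log2 fold change 0.22, edgeR adjusted p = 0.0547, DESeq2 adjusted p = 0.0104). Among the snoRNA hosts, Snhg20, Snhg12 and Snhg6 had log2 fold changes of 0.42, 0.27 and 0.13, and none passed (edgeR adjusted p = 0.147, 0.312 and 0.733).

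The miR-344 host sits in a run of 4 genes of the set on the minus strand of chromosome 7 between 61127996 and 62209479. Of these, A230057D06Rik and Gm9801 rose, and the other pair did not pass. Gm9801 had 19.96, 20.96, 19.3 and 17.8 CPM in HOM libraries, against 15.2, 13.7, 14.9 and 9.06 CPM in WT libraries (log2 fold change 0.56, SE 0.14, edgeR adjusted p = 0.0387). A230006K03Rik had 54.5 ± 8.02 CPM in HOM and 41.0 ± 6.21 CPM in WT (log2 fold change 0.41, edgeR adjusted p = 0.0692), and B230209E15Rik, which lies between that gene and A230057D06Rik, had 43.0 ± 7.68 CPM in HOM and 46.0 ± 7.68 CPM in WT (log2 fold change -0.10, edgeR adjusted p = 0.703; SD, n = 4 each).

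Other called genes, named for their small p and not ranked by fold change, were little known and mostly of low level. Gm13052 on chromosome 4 had 13.0, 9.94, 9.48 and 11.7 CPM in HOM libraries, against 6.51, 6.75, 5.87 and 4.22 CPM in WT libraries (log2 fold change 0.92, SE 0.15, edgeR adjusted p = 0.00956). Gm49782 on chromosome 10 had 3.95, 4.18, 3.41 and 4.37 CPM in HOM libraries, against 2.22, 1.91, 2.61 and 1.84 CPM in WT libraries (log2 fold change 0.89, SE 0.16, edgeR adjusted p = 0.0135). In both, the lowest HOM library lay above the highest WT library. Gm31508, Gm32200, D230017M19Rik and Gm30382 rose by 0.79, 0.73, 0.71 and 0.67 on the log2 scale (edgeR adjusted p = 0.0204, 0.0173, 0.0132 and 0.0196), at HOM means of 6.71, 13.8, 9.36 and 7.02 CPM and WT means of 3.88, 8.30, 5.71 and 4.41 CPM. Of somewhat higher level were 2610035D17Rik at 42.5 ± 8.14 CPM in HOM and 28.8 ± 2.40 CPM in WT, Gm20754 at 32 ± 1.76 CPM in HOM and 22.7 ± 3.41 CPM in WT, and 6530403H02Rik at 30.7 ± 4.59 CPM in HOM and 21.5 ± 2.21 CPM in WT (SD, n = 4 each). Their log2 fold changes were 0.57, 0.49 and 0.51 (edgeR adjusted p = 0.0241, 0.0214 and 0.0241). Gm44257 rose by 0.50 (edgeR adjusted p = 0.0119) and Gm40841 by 0.43 (edgeR adjusted p = 0.0273), the last at 108 ± 7.09 CPM in HOM and 79.7 ± 11.5 CPM in WT.

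Several abundant genes had a large part in the share but did not pass in edgeR, and 13 of the 255 were high in 3 libraries that span both genotypes. In these 13, 5.10% of the set beside 4.63% of all genes tested, HOM1, HOM4 and WT2 were all above the other 5 libraries, which is the order of the ribosomal RNA gene. D130009I18Rik had 350, 144, 175 and 374 CPM in HOM1 to HOM4, against 128, 257, 150 and 114 CPM in WT1 to WT4 (log2 fold change 0.68, SE 0.31, edgeR adjusted p = 0.214). Its ratio of HOM to WT was 1.41 among the 3 libraries of higher ribosomal RNA level and 1.22 among the other 5. Gm26561 had 213, 81.6, 95.2 and 212 CPM in HOM libraries, against 69.1, 167, 78.6 and 62.7 CPM in WT libraries, and other genes overlap 86.5% of its span. Gm19951 had 80.6, 19.3, 25.4 and 66.8 CPM in HOM libraries, against 21.3, 40.8, 19.1 and 17.5 CPM in WT libraries. Gm26917 had 90.7, 20.9, 24.2 and 41.2 CPM in HOM libraries, against 19.3, 25.5, 15.1 and 14.1 CPM in WT libraries, and lies on chromosome 17 beside CT010467.1. The groups overlapped in all 4, as the rule for the 13 genes requires. In an edgeR fit with the ribosomal RNA level as a further term, chosen after the data were seen, D130009I18Rik passed at a log2 fold change of 0.36 (adjusted p = 0.0283). Gm26561 passed there too, at 0.34 (edgeR adjusted p = 0.0103), against 0.67 without that term. Gm19951 stood at 0.45 with the term, against 0.96 without it, and Gm26917 at 0.79, against 1.26, and neither passed (edgeR adjusted p = 0.0682 and 0.0653). The 13 genes together held 0.0707% ± 0.0282 of the counts in HOM and 0.0446% ± 0.0147 in WT (SD, n = 4 each), and their part in the net difference was 0.0260 percentage points, or 19.3%. Without them the set's difference was 0.109 percentage points, and all HOM libraries still lay above all WT libraries. Without Malat1 as well, the other 241 genes held 0.669% ± 0.0245 in HOM and 0.641% ± 0.0305 in WT. That difference was 0.0282 percentage points, and the groups overlapped. The rule for the 13 genes asks for HOM1, HOM4 and WT2 to be highest, so it favours a higher mean in HOM. Their positive part, and the smaller difference without them, are thus partly set by that rule.

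**Figure D4:**
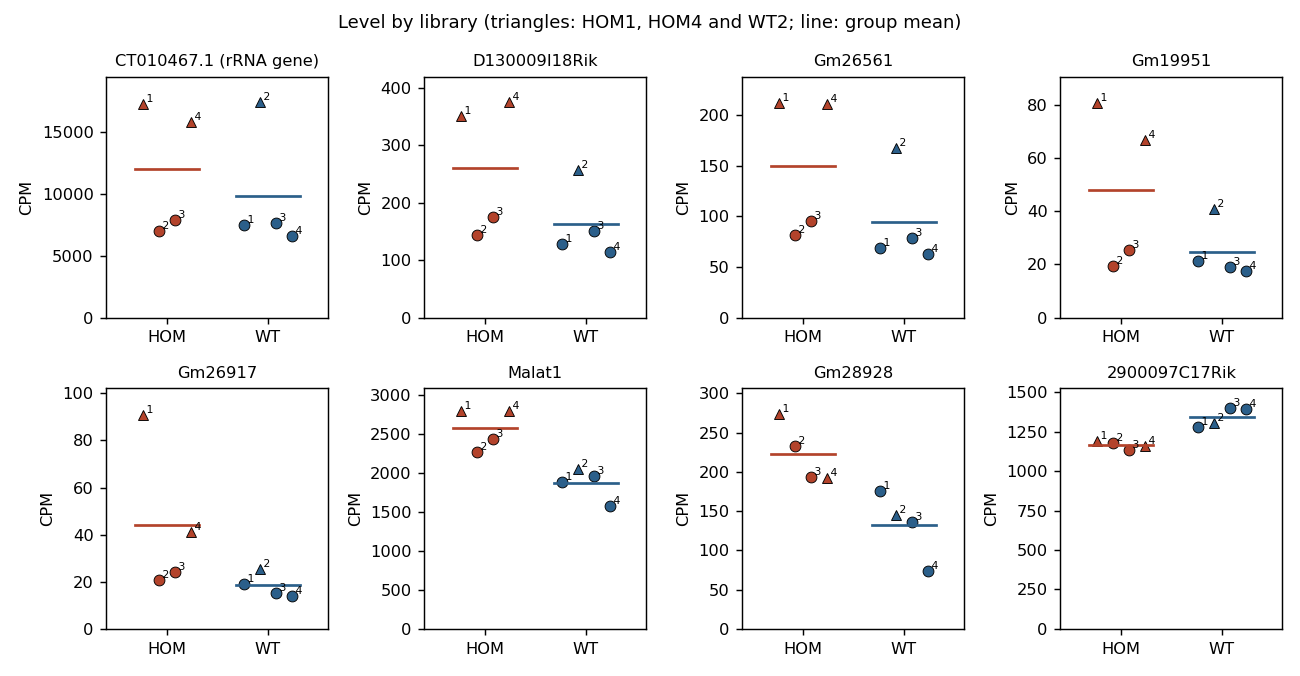
CPM of the ribosomal RNA gene CT010467.1 and of 7 lincRNA genes in each library, HOM left of WT, with group means as lines and triangles for HOM1, HOM4 and WT2. In D130009I18Rik, Gm26561, Gm19951 and Gm26917 the 3 triangles lie above all circles, as for the ribosomal RNA gene; in Malat1, Gm28928 and 2900097C17Rik the groups do not overlap.

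Gm28928 and Lncpint had no overlap of the groups and lay close to the threshold, on either side of it by fit. Gm28928 on chromosome 1 had 273, 233, 194 and 192 CPM in HOM libraries, against 175, 145, 137 and 74.3 CPM in WT libraries (log2 fold change 0.75, SE 0.21, edgeR adjusted p = 0.0543). It passed with DESeq2 (adjusted p = 0.0388) and with limma-voom (0.0490). In edgeR it passed by library totals only, with no filter or with a replicate block, and without WT1, without WT4 or without both replicates 4 (adjusted p = 0.0113 to 0.0492). Lncpint, a transcript that p53 induces, had 119, 70.5, 62.4 and 75.7 CPM in HOM libraries, against 56.7, 61.3, 50.6 and 37.7 CPM in WT libraries (log2 fold change 0.67, SE 0.19, edgeR adjusted p = 0.0603). HOM1 stood far above the other HOM libraries in Lncpint, and without it the log2 fold change was 0.44. Lncpint passed in edgeR by library totals only, with no filter or with the ribosomal RNA level as a further term (adjusted p = 0.0407, 0.0154 and 0.0456). Pvt1, a neighbour of Myc, had 35.9 ± 2.79 CPM in HOM and 32.8 ± 0.753 CPM in WT (edgeR adjusted p = 0.297), and Mir670hg had 9.52 ± 1.27 CPM in HOM and 9.86 ± 1.27 CPM in WT (SD, n = 4 each; edgeR adjusted p = 0.856).

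On the other side of the balance, 4 genes fell, all of low to middle level. Gm35040 on chromosome 7 had 41.8, 46.5, 40.2 and 40.6 CPM in HOM libraries, against 55.9, 53.9, 63.8 and 50.2 CPM in WT libraries (log2 fold change -0.40, SE 0.08, edgeR adjusted p = 0.0214). 9330102E08Rik had 27.0 ± 1.38 CPM in HOM and 33.7 ± 2.51 CPM in WT, and Gm5113 had 32.1 ± 0.695 CPM in HOM and 39.2 ± 2.06 CPM in WT, with log2 fold changes of -0.32 and -0.29 (edgeR adjusted p = 0.0345 and 0.0317). Gm45768, at 3.88 ± 0.268 CPM in HOM and 5.37 ± 0.326 CPM in WT, had a log2 fold change of -0.47 (edgeR adjusted p = 0.0417) and passed in none of the 8 fits that left out a library (SD, n = 4 each).

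The 3 abundant genes that held most of the opposite sum did not pass in edgeR with all 8 libraries. Bc1 (chr7:144914470-144914637, plus strand) had 524, 888, 554 and 767 CPM in HOM1 to HOM4, against 961, 832, 897 and 775 CPM in WT1 to WT4. HOM1 and HOM3 were low and HOM2 lay among the WT libraries (log2 fold change -0.34, SE 0.15, edgeR adjusted p = 0.187). Without HOM2 the edgeR adjusted p was 0.0403 at a log2 fold change of -0.49. 2900097C17Rik had 1192, 1175, 1132 and 1158 CPM in HOM libraries, against 1279, 1303, 1397 and 1394 CPM in WT libraries, with no overlap (log2 fold change -0.21, SE 0.06, edgeR adjusted p = 0.0591). 1700020I14Rik had 487, 587, 509 and 433 CPM in HOM libraries, against 677, 571, 708 and 590 CPM in WT libraries (log2 fold change -0.34, SE 0.10, edgeR adjusted p = 0.0644). Only HOM2 and WT2 overlapped in it. DESeq2 called both genes lower (adjusted p = 0.0045 for 2900097C17Rik and 0.0191 for 1700020I14Rik). With the ribosomal RNA level as a further term both passed in edgeR too (adjusted p = 0.0459 and 0.0486), and 1700020I14Rik also passed without HOM2, without WT2 or with no filter on low counts (edgeR adjusted p = 0.0288, 0.0497 and 0.0467).

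By span, 22.4% of the longest genes and 5.19% of the shortest were called higher. Of 49 genes spanning over 100 kb, 11 rose and none fell in edgeR (22 higher and 2 lower at an unadjusted p under 0.05, 20 and 0 by DESeq2), with a median log2 fold change of 0.28. Of 77 genes of up to 10 kb, 4 were higher and 1 lower, with a median of 0.11. Between these, 10 of 78 genes of 10 to 30 kb were higher and 3 lower, and 6 of 51 genes of 30 to 100 kb were higher and none lower (17 and 2 at an unadjusted p under 0.05, 9 and 1 by DESeq2). Protein-coding genes of mean CPM at least 3, not matched in level to the lincRNA genes, give a comparison. Among 2036 of them over 100 kb, 4.96% were higher and 4.03% lower, with a median of -0.0048. Among 2300 of up to 10 kb, 1.43% were higher and 3.22% lower. The lincRNA genes over 100 kb held 0.167% ± 0.0272 of the counts in HOM and 0.115% ± 0.0167 in WT (SD, n = 4 each), a difference of 0.0518 percentage points. Without 4 of them that follow the ribosomal RNA level, the other 45 held 0.120% ± 0.0121 in HOM and 0.0861% ± 0.0102 in WT, a difference of 0.0340 percentage points, with no overlap. The difference between span classes was not tested, and reads of introns seem to be counted here, so the level of a long gene is not that of its spliced RNA alone.

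**Figure D5:**
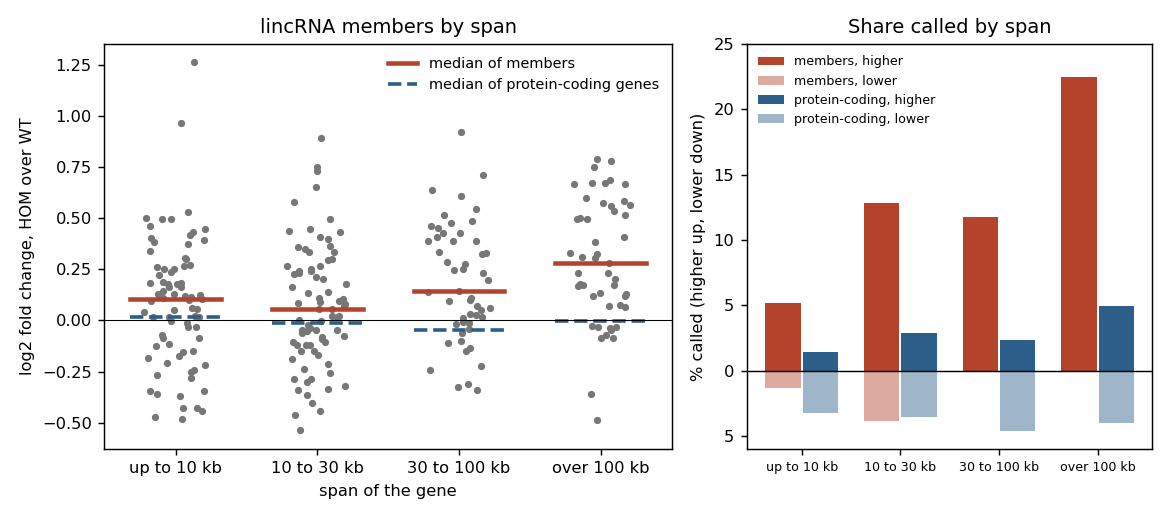
Left, log2 fold change of HOM over WT for the 255 lincRNA genes in 4 classes of span, with the median of each class. The median of protein-coding genes of mean CPM at least 3, not matched in level, is also drawn. Right, the percent of each class called higher (up) and lower (down) by edgeR; lincRNA genes over 100 kb have 22.4% higher and none lower.

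Of the set, 126 genes are overlapped by another annotated gene and 129 are clear of any. The clear ones had 12 higher and 4 lower, 9.30% and 3.10%, with a median log2 fold change of 0.10, and the overlapped ones 19 higher and none lower, 15.1%, with a median of 0.15 (45 and 9 at an unadjusted p under 0.05, 32 and 3 by DESeq2). Together the 129 clear genes, which do not include Malat1, held 0.415% ± 0.0191 of the counts in HOM and 0.430% ± 0.0176 in WT (SD, n = 4 each), so the share difference was -0.0149 percentage points in them. They do include Bc1, 2900097C17Rik and 1700020I14Rik.

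Of 227 genes of the set whose nearest protein-coding gene was tested, that neighbour was higher for 5 and lower for 11, beside 2.47% higher and 2.94% lower of all genes tested, with a median log2 fold change of -0.04. Of the 31 genes called higher, 25 had a tested neighbour, of which 1 was higher and 1 lower. AC171111.1, at 4.32 ± 0.502 CPM in HOM and 2.73 ± 0.402 CPM in WT, lies 1751 bases from Smoc2, which rose by 0.42 (edgeR adjusted p = 0.0264), and Ino80dos, at 12.2 ± 0.537 CPM in HOM and 9.65 ± 0.193 CPM in WT, overlaps Ndufs1, which fell by 0.34 (edgeR adjusted p = 0.0330; SD, n = 4 each; both pairs named after their values were seen).

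Other noncoding genes of mean CPM of at least 3 give a comparison for the share called higher. It was 12.2% in lincRNA genes, 6.25% in 176 antisense genes, 6.11% in 131 processed transcripts and 0% in 42 genes of the class to be experimentally verified, while 32 genes of bidirectional promoters had 12.5%. Protein-coding genes of mean CPM at least 3 had 2.81% of 11631. Among all genes tested, with no such threshold or exclusions, 3.97% of 1033 lincRNA genes and 2.39% of 14661 protein-coding genes were higher. There it was 2.51% of 597 antisense genes, 3.72% of 349 processed transcripts, 5.26% of 95 genes of bidirectional promoters and 0% of 205 to be experimentally verified. These differences between classes were not tested.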

How the data were processed

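Per the labels' protocols, a column kit gave total RNA of 4 HOM and 4 WT samples, and libraries were paired-end and stranded (TruSeq). The deposited values are raw counts of reads for each Ensembl gene. The submitters' processing notes name FastQC (0.11.3), STAR, featureCounts, edgeR and the build GRCm38. Annotation release and strand setting: not given in the sources used here. GENCODE M21 held 54409 of the 54446 gene identifiers. Of 608 lincRNA genes nested inside another gene, 607 stood at 0 in every library, against 30.1% of 4927 not nested. The counts are therefore taken to cover introns and to ignore strand, nested genes have no measured value, and genes that overlap others are uncertain.

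These deposited counts were fitted in R 4.3.3 with edgeR 4.0.16 (glmQLFit, glmQLFTest, TMM scaling, filterByExpr defaults), with genotype as the only term, all 8 libraries and Benjamini-Hochberg adjustment over the 17395 genes that passed the filter, at a threshold of 0.05. Levels are TMM-scaled CPM, with a prior count of 2 on the log2 scale. Shares are percent of a library's total count. All pairs of libraries differed by more than sampling noise (lowest chi-square per degree of freedom 7.09), and depth was 27993412 to 37538988 counts. Alternatives were RLE, upper-quartile and no composition scaling, other filters, DESeq2 1.42.0, limma-voom (limma 3.58.1), robust quasi-likelihood, a replicate block, leaving out each library, other level thresholds and other sets of lincRNA genes. Added once the data had been seen were the choroid plexus and ribosomal RNA covariates, the 5 libraries of lower ribosomal RNA level, leaving out HOM4 and WT4 together, and the share without the 13 genes that follow the ribosomal RNA level.

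The genes and lists were chosen with earlier results of these data known. Genes are named for the 12 largest positive and 6 largest negative parts of the share difference, up to 12 called higher and 12 called lower by smallest p, and a list of lincRNAs of known role, with fixed lists of paraspeckle, speckle and RNA decay genes; other genes are named beyond the rule where the text says so.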

Additional observations from a re-analysis of the deposited data

Results flagged for a closer look

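Some samples lay far from the rest of their group, by a gap test on groups of 4 that chance alone meets in about 1 of 20 groups. Of 114 groups tested 11 were flagged, beside 5.7 at that rate, and groups that share libraries are not independent. The value given is the gap to the nearest sample as a share of the group's range. Gm26561 and Gm19951 in WT2 (0.848 and 0.836) were high with that library's ribosomal RNA gene, whose share of counts was itself flagged in WT (0.919), as was the summed share of the 13 genes that follow it (0.921). Snhg6 was high in WT2 as well (0.984), at 12.1 CPM against 7.16 to 7.24 CPM in the other WT libraries. Mir124-2hg was high in HOM2 (0.911), at 73.5 CPM against 71.4 to 71.6 CPM, a small step on a narrow range. D230017M19Rik was high in HOM4 (0.847), at 10.9 CPM, and in WT1 (0.861), at 7.03 CPM. The share of the 255 genes was low in WT4 (0.840), which also had the highest choroid plexus level and the lowest Malat1 level. The summed share of the 4 genes called lower was high in HOM2 (0.929). The mitochondrially encoded genes held 4.24% of the counts in HOM2, against 3.32% to 3.44% in the other HOM libraries (0.866). The causes were not tested.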

How the results depend on the processing

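Calls depended on the fit more than directions did, and the causes of the changes below were not tested. In place of 31 higher and 4 lower, the set had 37 and 2 under upper-quartile scaling, 47 and 1 by library totals alone, and 51 and 12 with DESeq2, where 1900 of all genes passed against 940. Library totals only gave 844 higher and 286 lower over all genes, upper-quartile scaling 539 and 355, and TMM 429 and 511. With library totals only, all genes had a median log2 fold change of 0.07 and the set one of 0.19. The replicate block gave 18 and 0, and 364 over all genes. Same-numbered samples did not deviate together (correlations 0.05, -0.20, -0.01 and 0.03). The sample titles give no pairing, and such correlations cannot exclude one, since other differences between libraries can mask it. With the choroid plexus covariate, which largely follows genotype, the counts were 0 and 0, and 40 over all genes. Without HOM4 and WT4 together they were 8 and 2, and 335. With the ribosomal RNA covariate 35 were higher and 7 lower. In the 5 libraries of lower ribosomal RNA level they were 0 and 0, and 81 over all genes, with a median for the set of 0.15. Leaving out 1 library gave 5 to 27 higher, 0 to 8 lower, and 180 to 1187 over all genes. A level of at least 1 CPM gave 33 higher and 8 lower among 526 genes, and of at least 10 CPM 18 higher and 3 lower among 98. The share called higher thus depended on the level threshold.

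The share difference of 0.135 percentage points was 0.0542 without Malat1, 0.250 with the excluded genes counted and -0.0149 in the 129 genes clear of others, a set without Malat1. For all 255 genes it was 0.0918 on TMM-scaled library sizes. In the 5 libraries of lower ribosomal RNA level it was 0.101, and without HOM4 and WT4 together 0.103. It was 0.113 to 0.153 as each library was left out. Of genes that did not pass, Neat1 turned to 0.028 with library totals only, 0.46 with the choroid plexus covariate and 0.18 without both replicates 4, and ran from -0.15 to 0.11 as each library was left out, above 0 without HOM2, HOM4 or WT4. Mir670hg turned to 0.021 with library totals only and ran from -0.14 to 0.034, above 0 without HOM2, HOM4 or WT3. Mir9-3hg turned to -0.020 with the choroid plexus covariate and ran from -0.017 to 0.10, below 0 without WT4. Pantr1 turned to -0.10 with the choroid plexus covariate and -0.036 without both replicates 4, and ran from -0.0026 to 0.13, below 0 without WT4. Snhg6 turned to -0.22 and -0.042 under the same pair of changes.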
